A study of Mus musculus with 20 samples.

Results

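The genes described here are the 7 mammalian sirtuins, Sirt1 to Sirt7, with Nampt and Nnmt, which act on the nicotinamide that sirtuins release. These 9 genes were taken by symbol from the 55493 rows of the deposited TPM table and the matching rows of the 55487-row count table. All 9 passed the filter on low counts, as did 16312 genes in all. RNA came from livers of female C57BL/6N mice, 15 weeks old, which had either been fed chow or fasted for 24 h. The 20 libraries formed 4 groups of 5, called Plin2+/+ fed, Plin2+/+ fasted, Plin2-null fed and Plin2-null fasted. PLIN2 (perilipin 2) coats lipid droplets. The labels of the 10 libraries called Plin2-null give a feeding state without a genotype, and they were read as Plin2-/- by elimination, since the study's text names only Plin2+/+ and Plin2-/- animals. The sources used here do not say how Plin2 was inactivated, or in which cells. Each library's title carries a number of its own, but the labels do not say whether it stands for an animal, so a p-value here reflects only the spread between libraries, which may be technical.

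Sirtuins remove acetyl, succinyl and other acyl groups from lysines and consume NAD in the reaction, releasing nicotinamide. SIRT1, SIRT6 and SIRT7 are mainly nuclear, SIRT2 is mainly cytosolic, and SIRT3, SIRT4 and SIRT5 reside in mitochondria. NAMPT is the rate-limiting enzyme that returns nicotinamide to NAD. NNMT methylates nicotinamide with S-adenosylmethionine and so removes it from that route. In liver, SIRT1 deacetylates regulators of the fasting response such as PGC-1alpha, and NNMT is an abundant hepatocyte enzyme.

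The promoter stretch of Sirt1 is shown because its rise in Plin2+/+ livers held in every alternative tried. That of Nampt, which feeds SIRT1 with NAD, is shown because its rise was called in both genotypes, though not in every alternative. Sirt7, whose fall held in every alternative in both genotypes, is not shown. The stretches come from the RefSeq promoter table (GRCm38.p6), read 5′ to 3′ on the strand of the gene, and end at the start site that RefSeq gives. The Sirt1 stretch is chr10:63339051-63339285 on the minus strand, with 15 bases next to the start left out because GENCODE M21 counts them as exon. The Nampt stretch is chr12:32820085-32820334 on the plus strand. Both lie inside the span that GENCODE M21 gives the gene, whose first start is farther upstream. Capitals mark CACGTG, the E-box that CLOCK and BMAL1 can bind.
Sirt1: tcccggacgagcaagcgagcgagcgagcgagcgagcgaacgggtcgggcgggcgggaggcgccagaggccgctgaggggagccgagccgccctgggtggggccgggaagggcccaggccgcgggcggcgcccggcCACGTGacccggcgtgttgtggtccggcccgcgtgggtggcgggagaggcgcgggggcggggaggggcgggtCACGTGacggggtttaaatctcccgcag
Nampt: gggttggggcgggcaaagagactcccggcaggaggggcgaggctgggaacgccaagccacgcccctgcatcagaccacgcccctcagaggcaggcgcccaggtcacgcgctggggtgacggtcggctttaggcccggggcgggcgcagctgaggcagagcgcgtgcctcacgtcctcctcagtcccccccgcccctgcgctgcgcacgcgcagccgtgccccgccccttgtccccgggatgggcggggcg

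The Sirt1 stretch holds E-boxes whose first bases lie 115 and 43 bases before the start. Over the full 250 bases, GC content was 79.2% for Sirt1 and 75.6% for Nampt, with 39 and 27 CpG dinucleotides. The table held 10 promoters of 8 of the 9 genes, all but Nnmt, with Sirt3 and Sirt6 each entered by more than 1 start. GENCODE M21 counts many of the 250 bases before these starts as exon of the gene or a neighbour. These were 250 in both Sirt3 windows, 250 in Sirt7, 231 and 101 in Sirt6, 216 in Sirt4 and 156 in Sirt2. There were 39 in Sirt5, 15 in Sirt1 and 0 in Nampt. The search below therefore read exon sequence in most windows. Searched on both strands over the 250 bases before each start, CACGTG was found in 1 of these 10 promoters and in 6.02% of all 32851 promoters. TGACGTCA, the cAMP response element, was in none of the 10 and in 1.55% of all. GTAAACA, a forkhead site, was in none of the 10 and in 3.17% of all, and DR1, the direct repeat that PPARalpha binds with RXR, was in none of the 10 and in 0.0335% of all. The motifs do not overlap each other in the stretches shown, and a match of letters is a description, not a site of binding.

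Libraries held 25506471 to 65579038 counts in total, and the 9 genes drew from 51 counts (Sirt6) to 12538 counts (Nnmt) in a library. Plin2 was examined as a check of the labels and was lower in Plin2-null libraries (log2 fold change -3.72 ± 0.22 fed and -4.04 ± 0.23 fasted, SE), with no overlap between groups. Hepatocyte markers were high in every library, with a summed level of 86106 to 164885 TPM over 6 genes. Of 8 adipocyte markers, Adipoq, Plin1, Lep, Cfd and Retn had means under 0.1 TPM in every group. The others were Car3, an enzyme also abundant in hepatocytes, which fell on fasting (log2 -7.30 ± 0.60 in Plin2+/+ and -5.68 ± 0.56 in Plin2-null livers, SE), Fabp4, which rose in both (0.57 ± 0.22 and 0.62 ± 0.22), and Lipe, which rose in Plin2-null livers (0.56 ± 0.21). With Car3 the sum of the 8 markers was 1007 to 2797 TPM in fed and 17.6 to 58.2 TPM in fasted livers. The libraries differed in their trend of expression with the GC content of the gene, from -0.36 log2 units per 10 percentage points in Plin2+/+ fasted replicate 1 to 0.27 in Plin2-null fasted replicate 4. A single 18S rRNA-like gene, CT010467.1, took 4.87% to 24.8% of the counts. The TMM factor, which corrects a library's size for its composition, was under 0.9 in 3 libraries: Plin2+/+ fasted replicates 2 and 3 and Plin2-null fasted replicate 3. Where leaving out these 3 libraries ended a call of the 9 genes or moved it by over 1.5 times, the value without them is given.

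The level of the genes was compared per length, in TPM (reads per gene length as a share of the library), because CPM grows with gene length. In Plin2+/+ fed livers Nnmt stood first at 110 ± 60.8 TPM, and Nampt (30.4 ± 4.93) and Sirt3 (29.1 ± 3.96) followed with overlapping ranges (SD, n = 5). Sirt2 was at 15.5 ± 1.26 TPM, Sirt7 at 9.62 ± 1.03, Sirt4 at 7.80 ± 0.890, Sirt1 at 5.74 ± 0.596, Sirt5 at 4.30 ± 0.521 and Sirt6 at 2.82 ± 0.473 (SD, n = 5). Neighbours in this order whose library ranges overlapped were Nampt and Sirt3, Sirt7 and Sirt4, and Sirt1 and Sirt5. The mitochondrial deacetylase gene Sirt3 was thus the highest sirtuin, and it held 38.8% ± 2.33 of the summed TPM of the 7 sirtuins (SD, n = 5). In the other groups Sirt3 held 43.0% ± 3.64 (Plin2+/+ fasted), 37.3% ± 1.93 (Plin2-null fed) and 40.2% ± 3.18 (Plin2-null fasted; SD, n = 5 each).

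Among the sirtuins, the order of the lower genes was not the same in fed and fasted livers. Sirt7 was the third sirtuin in both fed groups and the fifth in both fasted groups. Its range overlapped that of Sirt4 in every group and that of Sirt5 in both fasted groups. The Sirt7 share of summed sirtuin TPM was 12.9% ± 1.04 in Plin2+/+ fed and 6.61% ± 0.459 in Plin2+/+ fasted livers, and 13.3% ± 1.78 and 7.90% ± 0.374 in the Plin2-null groups (SD, n = 5). Sirt1 was the fifth sirtuin in both fed groups and the third in both fasted groups, with ranges that overlapped its neighbour Sirt4 when fasted. In Plin2-null livers its own mean was 6.45 TPM fed and 6.29 TPM fasted, so its place changed without a rise in TPM. Sirt6 was the lowest of the 9 genes in every group, at means of 1.95 to 3.03 TPM.

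**Figure D1:**
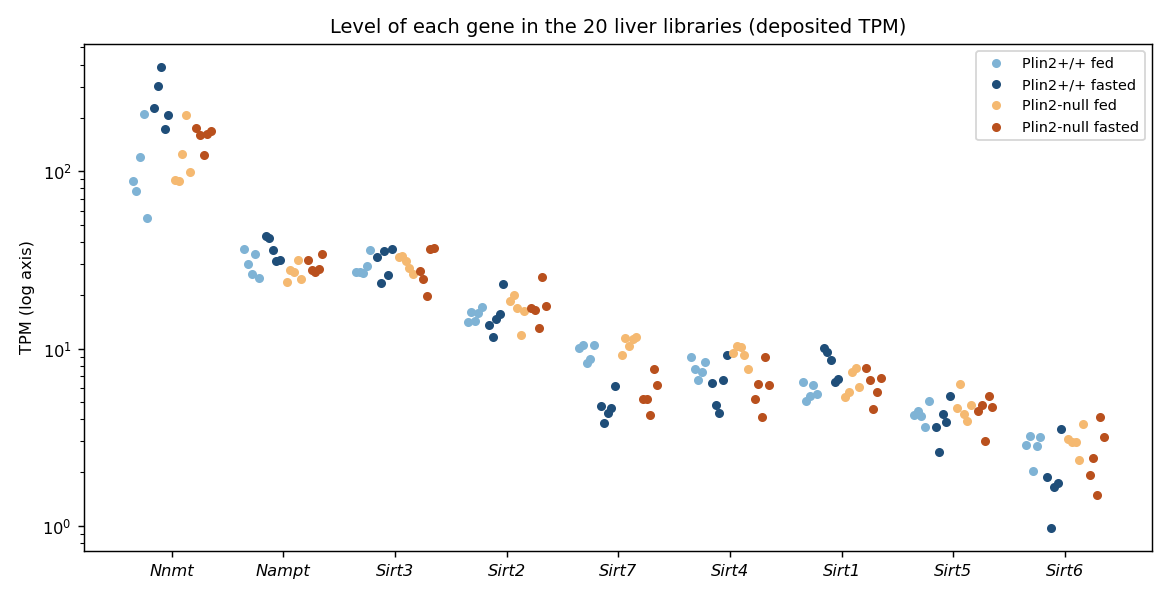
Deposited TPM of the 9 genes on a log axis, ordered by their mean over the groups; each dot is 1 library and colours give the 4 groups of 5. Nnmt lies above all other genes in every library, Nampt and Sirt3 share a level near 30 TPM, and the fed and fasted dots of Sirt7 are apart.

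The first comparison asked how the genes respond to fasting in Plin2+/+ livers. Sirt1, Nampt and Nnmt rose and Sirt7 fell, while the cytosolic Sirt2, the mitochondrial Sirt3, Sirt4 and Sirt5 and the nuclear Sirt6 did not pass the test. Thus 4 of 9 genes passed the quasi-likelihood test of edgeR, with a threshold of 0.05 on the p adjusted by Benjamini-Hochberg over all genes, against 42.6% of all genes tested. By direction, 3 rose and 1 fell, where 20.9% of all genes rose and 21.7% fell. The count of members is therefore close to the background of a liver in which fasting moved a large share of all genes. The median log2 fold change of the 9 genes was 0.16, and that of all genes -0.01. In bulk tissue, fewer cells of a type and less RNA per cell cannot be told apart.

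Sirt1, the nuclear deacetylase, lies on chromosome 10 from 63319005 to 63381704 (minus strand, GRCm38). Values per library are given as CPM, counts scaled to library size by the TMM method. Sirt1 was at 12.3, 10.4, 12.1, 12.2 and 11.0 CPM in Plin2+/+ fed libraries and at 19.4, 25.1, 21.1, 15.5 and 13.5 CPM in Plin2+/+ fasted libraries. Every fasted library was above every fed library, which holds for 13.2% of all genes in this direction, and fasted replicate 2 was the highest. The log2 fold change was 0.71 ± 0.15 (SE), a 1.63-fold rise with edgeR adjusted p = 7.83e-04. Over the 22 alternatives tried, including each library left out in turn, it ranged from 0.45 to 0.81 and stayed past the threshold. Without the 3 libraries of low TMM factor it was 0.46 (edgeR adjusted p = 0.0357, the highest of these). The antisense gene Gm16145 overlaps 65 exon bases of Sirt1, and the sources used here do not state whether counting used the strand.

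Sirt7, a nuclear and nucleolar deacetylase, lies on chromosome 11 from 120618372 to 120625240 (minus strand). It was at 18.4, 20.9, 17.9, 16.7 and 20.2 CPM in Plin2+/+ fed and at 8.81, 9.67, 10.2, 10.7 and 11.9 CPM in Plin2+/+ fasted libraries. All fasted libraries lay below all fed libraries, as in 13.5% of all genes, and the spread within each group was small. The log2 fold change of -0.88 ± 0.10 (SE) is a 1.84-fold fall with edgeR adjusted p = 4.78e-07. It lay between -1.03 and -0.70 over all alternatives, with a highest adjusted p of 4.69e-05. Mafg shares 124 exon bases with Sirt7 on the same strand and was not called in this comparison (0.14 ± 0.12, SE, edgeR adjusted p = 0.384).

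Nampt, the salvage enzyme, lies on chromosome 12 from 32819545 to 32853349 (plus strand). Its CPM values were 65.3, 58.5, 55.9, 63.9 and 47.2 in Plin2+/+ fed and 78.6, 105, 83.3, 71.1 and 59.7 in Plin2+/+ fasted libraries. The groups overlapped: fasted replicate 5 was below fed replicates 1 and 4. The rise was 0.45 ± 0.14 on the log2 scale (SE), 1.37-fold, with edgeR adjusted p = 0.00999. The call ended without Plin2+/+ fasted replicate 2 (0.32, adjusted p = 0.0528), without the 3 libraries of low TMM factor (0.25, adjusted p = 0.141), and with library size alone (0.27, adjusted p = 0.0745). On the deposited TPM values limma gave 0.27 with a pseudocount of 1 and 0.28 with 0.1 (adjusted p = 0.124 and 0.123 in limma). With library size alone the median of all genes itself shifted to -0.16, so Nampt stood above that median in either scaling.

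Nnmt, the nicotinamide methyltransferase, lies on chromosome 9 from 48591877 to 48605153 (minus strand) and varied most between libraries. It was at 48.9, 47.1, 79.4, 122 and 32.0 CPM in Plin2+/+ fed and at 129, 236, 280, 123 and 122 CPM in Plin2+/+ fasted libraries. Fed replicate 4 reached the level of the lower fasted libraries, and fasted replicates 2 and 3, both with a low TMM factor, were far above the other 3. The log2 fold change was 1.43 ± 0.34 (SE), a 2.70-fold rise with edgeR adjusted p = 0.00215. Without the 3 libraries of low TMM factor it was 0.91 and was no longer called (edgeR adjusted p = 0.0572). Every other alternative kept the call, with values from 1.21 to 1.77 when 1 library was left out.

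The 5 genes that did not pass had log2 fold changes from -0.42 to 0.23. Sirt3, which deacetylates mitochondrial enzymes of fat oxidation, was at 66.1 ± 8.71 CPM fed and 77.7 ± 12.3 CPM fasted (SD, n = 5; log2 fold change 0.23 ± 0.11, SE, edgeR adjusted p = 0.106). It passed when Plin2+/+ fed replicate 5 was left out (0.31, adjusted p = 0.0368). Sirt3 shares 418 exon bases with Ric8a and 342 with Psmd13 on the opposite strand, and Psmd13 rose in the same comparison (0.60 ± 0.10, SE). Sirt6, a nuclear deacetylase with roles in glucose metabolism, was at 2.83, 3.46, 2.37, 2.91 and 3.27 CPM fed and at 1.90, 1.33, 2.09, 2.19 and 3.64 CPM fasted. All fasted libraries but replicate 5 were below all fed libraries. With all libraries the log2 fold change was -0.42 ± 0.22 (SE, edgeR adjusted p = 0.131), and without fasted replicate 5 it was -0.67 (adjusted p = 0.0104). Sirt2 (0.16 ± 0.14), Sirt4 (-0.18 ± 0.14) and the desuccinylase gene Sirt5 (0.02 ± 0.14, log2, SE) had overlapping groups.

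**Figure D2:**
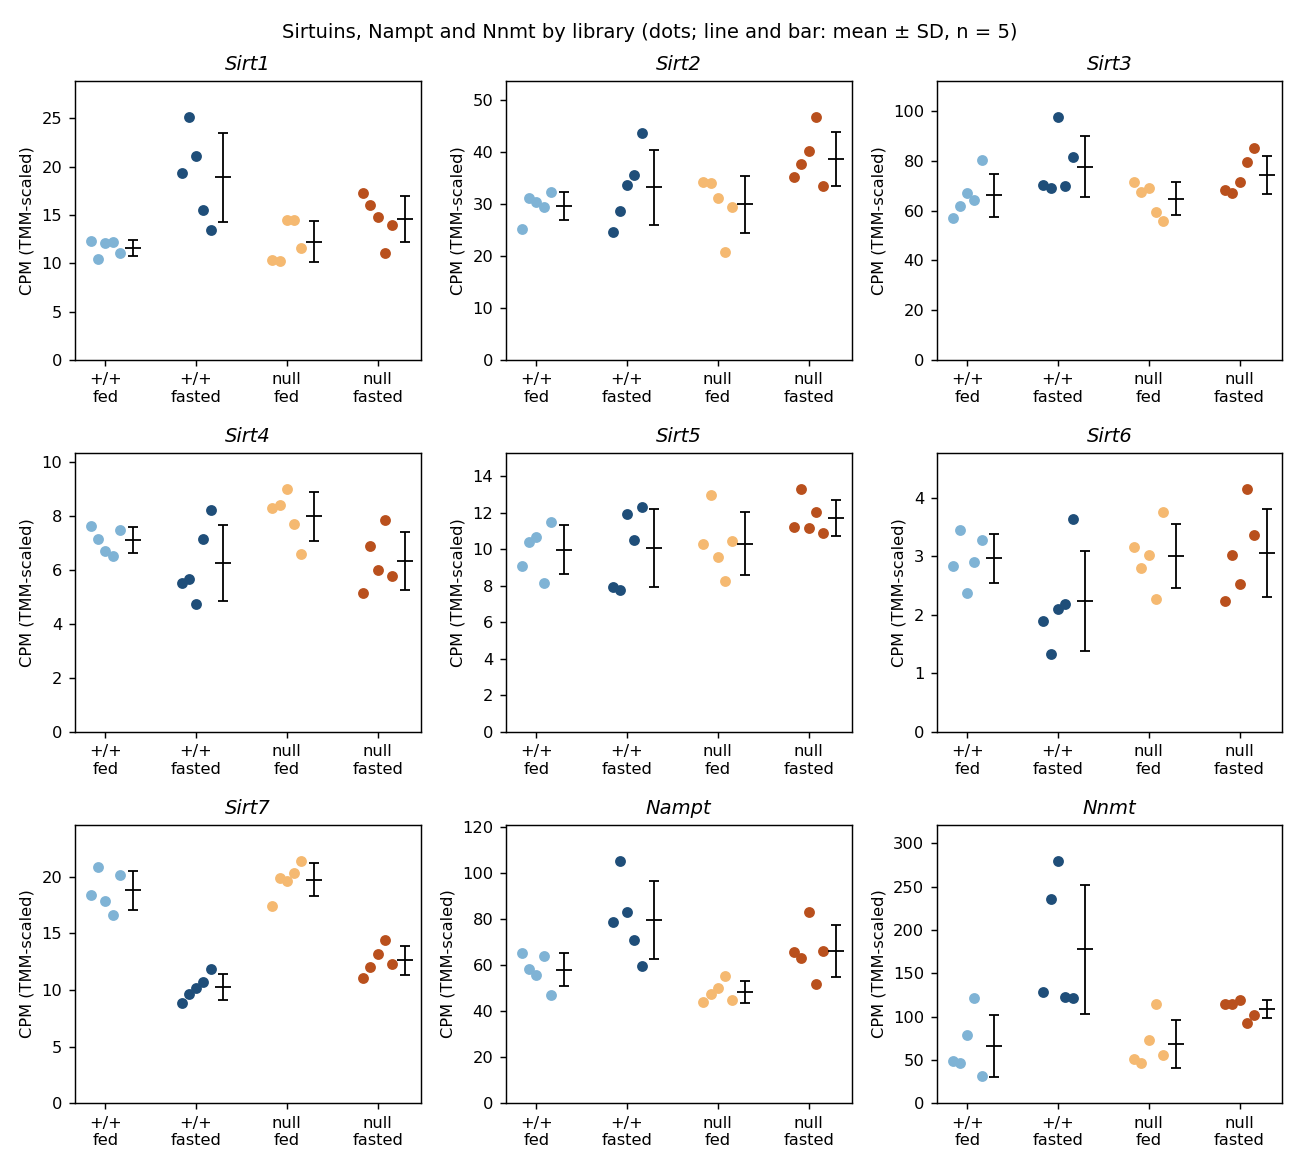
TMM-scaled CPM of each gene by group on linear axes from 0; dots are the 5 libraries of a group in replicate order and the line with its bar is the mean ± SD. Sirt7 separates fed from fasted libraries in both genotypes, Sirt1 does so in Plin2+/+ livers, and Nnmt has its highest values in Plin2+/+ fasted replicates 2 and 3.

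In Plin2-null livers the same comparison gave 2 of 9 genes, against 36.1% of all genes tested by the same edgeR call. Nampt rose, where 18% of all genes rose, and Sirt7 fell, where 18.1% fell. The median of the 9 log2 fold changes was 0.20, and that of all genes -0.01.

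Sirt7 was at 17.4, 19.9, 19.6, 20.3 and 21.4 CPM in Plin2-null fed and at 11.1, 12.1, 13.2, 14.4 and 12.3 CPM in Plin2-null fasted libraries. The groups did not overlap, as in 11.8% of all genes in this direction. The fall was -0.64 ± 0.10 on the log2 scale (SE), 1.56-fold, with edgeR adjusted p = 3.00e-05. It held in all 22 alternatives, at -0.93 to -0.60.

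Nampt was at 44.0, 47.3, 50.2, 55.4 and 44.9 CPM in Plin2-null fed and at 65.9, 63.1, 83.3, 51.8 and 66.0 CPM in Plin2-null fasted libraries. Fasted replicate 4 lay below fed replicate 4, and the other 4 fasted libraries lay above all fed libraries. The log2 fold change was 0.45 ± 0.14 (SE), 1.36-fold, with edgeR adjusted p = 0.0133. It was not called without Plin2-null fasted replicate 3 (0.34, adjusted p = 0.0631), with library size alone (0.21, adjusted p = 0.173) or on TPM (0.14 with either pseudocount). The median of all genes shifted to -0.21 with library size alone and to -0.28 on log2(TPM + 0.1). NAMPT is also made by neutrophils, and 3 of 5 neutrophil markers tested rose here, as did 2 of 5 in Plin2+/+ livers. The summed level of the 8 neutrophil markers was 7.07 to 16.6 TPM in Plin2-null fed and 17.9 to 34.6 TPM in Plin2-null fasted livers, and 6.48 to 10.7 TPM in Plin2+/+ fed and 8.56 to 14.7 TPM in Plin2+/+ fasted livers, led by S100a9 and S100a8, with Mpo and Ly6g under 0.1 TPM. Their part in the Nampt results was not tested.

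Sirt1 was at 10.4, 10.3, 14.5, 14.5 and 11.6 CPM in Plin2-null fed and at 17.2, 16.0, 14.8, 11.0 and 13.9 CPM in Plin2-null fasted libraries. The groups overlapped, and the log2 fold change of 0.25 ± 0.15 (SE) did not pass (edgeR adjusted p = 0.207). Nnmt was at 51.2, 46.8, 73.1, 114 and 55.9 CPM fed and at 115, 114, 119, 93.0 and 102 CPM fasted. Only fed replicate 4 reached into the range of the fasted libraries. With all libraries Nnmt gave 0.67 ± 0.33 (SE, edgeR adjusted p = 0.123). Without fed replicate 4 it gave 0.94 (adjusted p = 0.0372), and in a fit on these 2 groups alone 0.67 (adjusted p = 0.0256).

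Sirt2, a cytosolic tubulin and histone deacetylase, was at 34.3, 34.0, 31.2, 20.8 and 29.5 CPM in Plin2-null fed and at 35.2, 37.7, 40.1, 46.7 and 33.4 CPM in Plin2-null fasted libraries. Its log2 fold change of 0.37 ± 0.14 (SE) lay at the threshold (edgeR adjusted p = 0.0505) and the groups overlapped by fasted replicate 5 alone. Sirt4, a mitochondrial sirtuin that inhibits glutamate dehydrogenase, was at 8.26, 8.39, 8.98, 7.70 and 6.56 CPM fed and at 5.14, 6.86, 5.99, 7.85 and 5.76 CPM fasted. Its log2 fold change was -0.33 ± 0.14 (SE, edgeR adjusted p = 0.0735). It passed with library size alone (-0.54, adjusted p = 0.0291) and on TPM (-0.56 and -0.63), where the median of all genes was below 0 as well. It also passed without Plin2-null fed replicate 5 (-0.40, adjusted p = 0.0452) and without Plin2-null fasted replicate 4 (-0.43, adjusted p = 0.0298). Sirt3 (0.20), Sirt5 (0.18) and Sirt6 (0.03, log2) did not pass. With log2(TPM + 0.1) the signs of these 3 genes and of Sirt1 were negative in Plin2-null livers, and that of Sirt2 and Sirt5 in Plin2+/+ livers.

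The trend of the libraries with GC content touched these genes, whose longest transcripts run from 40.3% GC (Nampt) to 58.4% GC (Sirt6). Plin2+/+ fasted replicates 1 and 2 had trends of -0.36 and -0.34 log2 units per 10 percentage points, and all 5 Plin2-null fasted libraries had trends of 0.004 to 0.27. With each library's trend removed, Sirt1 (0.63), Sirt7 (-0.70), Nampt (0.37) and Nnmt were still called in Plin2+/+ livers, and Sirt2 was added (0.29, edgeR adjusted p = 0.0196). In Plin2-null livers Nampt (0.53) and Sirt7 (-0.73) were still called, and Sirt2 (0.33, adjusted p = 0.0106) and Sirt4 (-0.37, adjusted p = 0.0210) were added, which makes 4 of 9. The share of all genes called with the trend removed is not given here.

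**Figure D3:**
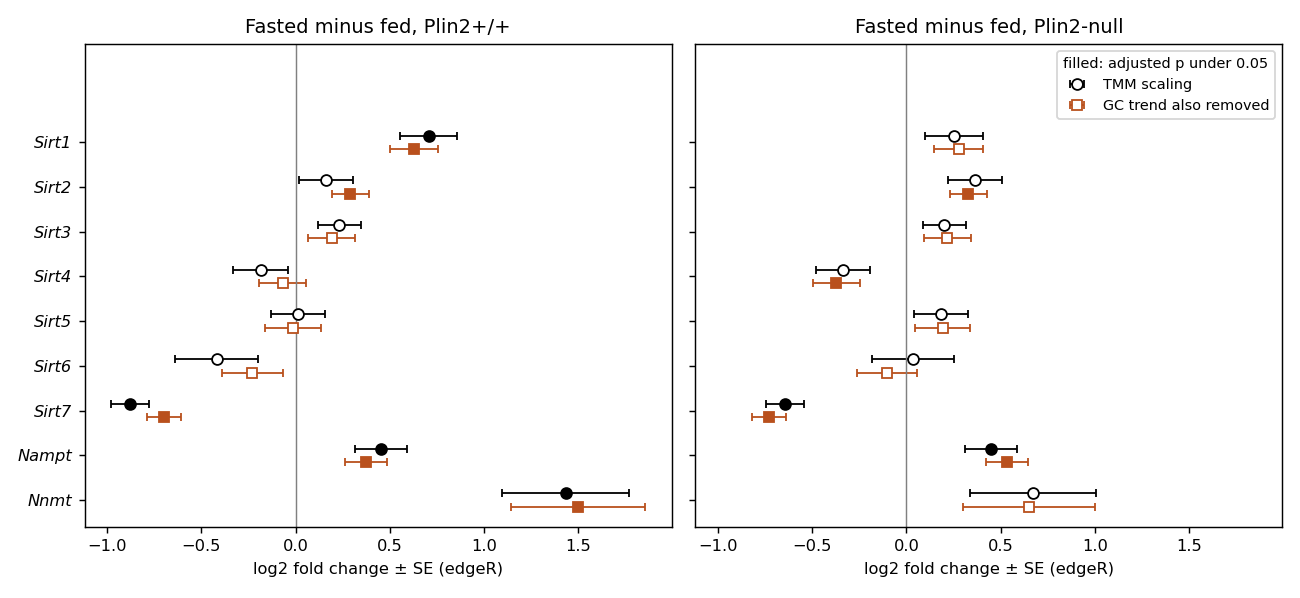
Log2 fold change of fasted over fed ± SE for each gene in Plin2+/+ (left) and Plin2-null livers (right), from edgeR with TMM scaling (circles) and with each library's GC trend also removed (squares); filled symbols have an adjusted p under 0.05. Sirt7 and Nampt are filled on both sides, Sirt1 and Nnmt on the left side.

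In fed mice, Plin2 genotype moved none of the 9 genes past the threshold, where edgeR called 0.0184% of all genes. None of the 9 reached an unadjusted p under 0.05, as 4.25% of all genes did, and DESeq2 called 0 of 9. Log2 fold changes of Plin2-null over Plin2+/+ ran from -0.27 ± 0.14 for Nampt to 0.17 ± 0.14 for Sirt4 (SE). The Nampt groups overlapped, with 44.0 to 55.4 CPM in Plin2-null and 47.2 to 65.3 CPM in Plin2+/+ fed livers.

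In fasted mice, genotype called 0 of 9 genes, against 3.24% of all genes, and DESeq2 also called 0. At an unadjusted p under 0.05 there were 4 of the 9, against 24.3% of all genes. Sirt1 (-0.38 ± 0.15, edgeR adjusted p = 0.141) and Nnmt (-0.71 ± 0.33, adjusted p = 0.199) were at lower values in Plin2-null livers. Sirt7 (0.30 ± 0.10, adjusted p = 0.0856) and Sirt6 (0.47 ± 0.22, adjusted p = 0.196; log2, SE) were at higher values. Nnmt was the only one of the 9 whose groups did not overlap: its highest Plin2-null fasted library was at 119 CPM and its lowest Plin2+/+ fasted library at 122 CPM. Such separation in this direction was seen in 2.21% of all genes. Without the 3 libraries of low TMM factor, which include the Plin2+/+ fasted libraries at 236 and 280 CPM, the Nnmt difference was -0.24 (edgeR adjusted p = 0.833) and that of Sirt1 -0.15 (adjusted p = 0.749). Leaving out Plin2+/+ fasted replicate 5 brought 3 genes past the threshold, Sirt1 (-0.48, adjusted p = 0.0415), Sirt6 (0.73, adjusted p = 0.0290) and Sirt7 (0.36, adjusted p = 0.0324). That library had the highest GC trend of its group, 0.19 log2 units per 10 percentage points, and its part in the result was not tested. The share of all genes called without that library is not given here, so the 3 genes cannot be set against a background. With the GC trend of every library removed, 0 of 9 were called, as with TMM scaling alone. Sizes did depend on the processing. Over the alternatives other than leaving out 1 library, the Sirt7 difference ran from 0.07 to 0.33 and that of Sirt6 from 0.15 to 0.57.

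Whether the fasting response itself differed between genotypes was tested by the interaction, which subtracts the fasting response of Plin2+/+ from that of Plin2-null livers. edgeR called 0 of 9 genes, as it called 0% of all genes, and DESeq2 called 0 of 9. At an unadjusted p under 0.05 there was 1 of the 9, Sirt1 (-0.45 ± 0.22, SE, unadjusted p = 0.0477, adjusted p = 0.358), against 13.8% of all genes. Nnmt had the largest size, -0.76 ± 0.47 (SE, edgeR adjusted p = 0.460), and Nampt the smallest, -0.01 ± 0.19. The calls of Sirt1 and Nnmt in Plin2+/+ livers and their absence in Plin2-null livers therefore do not show a difference between genotypes.

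Within groups, how the genes varied together was described by correlations of each library's log2 CPM deviation from its group mean over the 20 libraries. Sirt1, Nampt and Nnmt deviated together, with Pearson r of 0.62 to 0.77 in all 3 pairs. Sirt2, Sirt4, Sirt5, Sirt6 and Sirt7 also deviated together, in all 10 pairs, with a median r of 0.54. Every one of the 15 pairs between these sets was negative, with a median of -0.54 and a lowest value of -0.80 for Sirt1 and Sirt6. These sets were named after the values were seen, and Sirt3 was left out of both. With Sirt2, Sirt4, Sirt5, Sirt6 and Sirt7, the r of Sirt3 ran from 0.06 (Sirt4) to 0.48 (Sirt5). With Sirt1, Nampt and Nnmt it was -0.26, -0.38 and -0.08. The libraries' GC trend moved with the same deviations: its r was -0.80 with Sirt1, -0.66 with Nampt and -0.48 with Nnmt, and 0.90 with Sirt2, 0.74 with Sirt5, 0.73 with Sirt6, 0.59 with Sirt3, 0.56 with Sirt4 and 0.56 with Sirt7. These r values used the slope of a straight line, whereas the trend was removed as a fitted curve. With the GC trend removed in that way, the 3 pairs among Sirt1, Nampt and Nnmt stayed at 0.54 to 0.67. The median of the other set went to 0.13, with 8 of 10 pairs positive, and the median between the sets to -0.33, with 12 of 15 negative. The r of Sirt3 with Sirt2, Sirt4, Sirt5, Sirt6 and Sirt7 then ran from -0.52 (Sirt7) to 0.59 (Sirt5). All points share the libraries' depth and scaling.

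**Figure D4:**
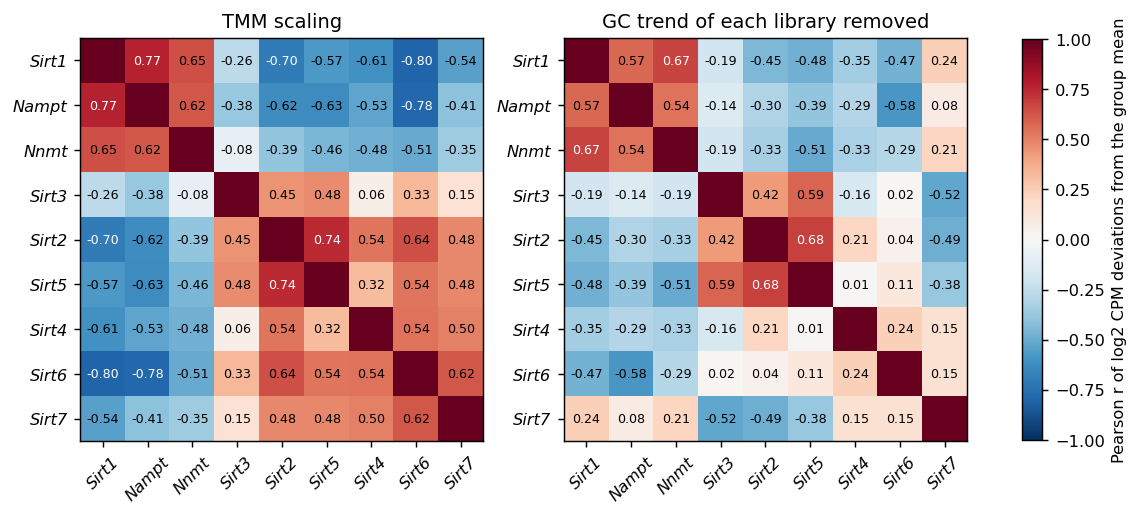
Pearson r between pairs of the 9 genes over 20 libraries, from log2 CPM deviations from the group mean, with TMM scaling (left) and with each library's GC trend removed (right); red is positive and blue negative. The red block of Sirt1, Nampt and Nnmt is present in both panels, while the block of Sirt2, Sirt5, Sirt4, Sirt6 and Sirt7 is paler on the right.

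The genes most like each member by the same measure were sought among about 8816 genes with a mean of at least 5 CPM. For Sirt1 these were Eif5 (r = 0.93), Cul3 (0.91) and Relch (0.90). For Nampt they were Stx7 (0.88), Vapa (0.88) and Cul4b (0.86), and for Sirt7 they included Notum (0.85) and Nudc (0.82). Nnmt was most like Hgd, an enzyme of tyrosine breakdown (0.90), Acmsd, which diverts tryptophan away from NAD (0.90), and Slc15a4 (0.88). For Sirt3 they were Bcl2l1 (0.87), Stard5 (0.86) and Rps6kc1 (0.85). Sirt2 had Urah (0.95), Tfip11 (0.95) and Trmt112 (0.95), Sirt5 had Lsm4 (0.89) and Ifi35 (0.88) among its 3, Sirt6 had Ciz1 (0.87), Prkd2 (0.86) and Zfp335 (0.86), and Sirt4 had Wrap53 (0.82), Snx15 (0.82) and Sgsm2 (0.82). With the GC trend removed, Hgd (0.91) and Slc15a4 (0.89) stayed among the 3 of Nnmt, Vapa (0.81) and Stx7 (0.78) among those of Nampt, Eif5 (0.87) of Sirt1, Urah (0.86) of Sirt2 and Rps6kc1 (0.83) of Sirt3. For Sirt4, Sirt5, Sirt6 and Sirt7 none of the 3 stayed.

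The pathways around the 9 genes were read from lists of other genes. For comparison, edgeR called 20.9% of all genes higher and 21.7% lower on fasting in Plin2+/+ livers. In Plin2-null livers these shares were 18% and 18.1%. NAD is made in liver from tryptophan. Of 8 genes tested from the list of this route, 3 rose and 4 fell on fasting in Plin2+/+ livers. In Plin2-null livers 2 rose and 5 fell. The list includes Acmsd, which diverts tryptophan away from NAD, so these counts do not give a direction of NAD synthesis. Tdo2, an enzyme of the entry step, rose from 724 ± 167 to 2108 ± 433 TPM in Plin2+/+ and from 630 ± 85.9 to 1289 ± 128 TPM in Plin2-null livers (SD, n = 5; log2 1.73 ± 0.18 and 1.34 ± 0.18, SE). Ido2, whose product acts at the same entry step, fell by log2 -1.13 ± 0.16 and -1.61 ± 0.16, and Haao, which leads to quinolinate farther along, by -1.41 ± 0.15 and -1.10 ± 0.15 (Plin2+/+ and Plin2-null, SE). Qprt, which commits quinolinate to NAD, went from 61.7 ± 10.3 to 28.2 ± 6.13 TPM in Plin2+/+ livers, and Afmid from 31.6 ± 3.37 to 15.3 ± 3.88 TPM in Plin2-null livers (SD, n = 5). The calls of Tdo2, Haao and Ido2 in both genotypes, of Qprt in Plin2+/+ and of Afmid in Plin2-null livers held in all 22 alternatives.

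Of 11 salvage genes tested other than Nampt, 2 rose and 1 fell in Plin2+/+ and 1 rose and 1 fell in Plin2-null livers. Nmnat2, which joins nicotinamide mononucleotide to AMP, fell by log2 -2.00 ± 0.36 and -1.39 ± 0.36 (SE) from a level of only 0.301 ± 0.0601 and 0.251 ± 0.0660 TPM (SD, n = 5). Slc25a51, the mitochondrial NAD carrier, rose in Plin2+/+ livers (0.87 ± 0.26, SE), a call that ended without the 3 libraries of low TMM factor (0.71, edgeR adjusted p = 0.0995). Pnp2 rose in both (1.46 ± 0.29 and 0.86 ± 0.29, SE), but its group means are under 2 TPM, it lies in a family of close copies, and 8 of 21 alternatives ended the call in Plin2-null livers.

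Of 7 genes that keep up NADP and repair NAD(P)H, 2 rose and 2 fell in Plin2+/+ and 3 rose and 1 fell in Plin2-null livers. Nadk, the cytosolic NAD kinase, rose by log2 0.49 ± 0.10 and 0.44 ± 0.10, and Nudt12, a hydrolase that decaps NAD-capped RNA, by 0.73 ± 0.10 and 0.41 ± 0.10 (SE). Nudt13 fell by -0.39 ± 0.11 and -0.35 ± 0.11 (SE). In Plin2-null livers the rises of Nadk and Nudt12 were each lost in 3 of 22 alternatives. In Plin2+/+ livers that of Nadk was lost in 2 and that of Nudt12 in 0. The fall of Nudt13 was lost in 1 alternative in each genotype. Naxd also rose in Plin2-null livers (log2 0.32), a call that 13 alternatives ended.

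Other enzymes that consume NAD moved in both directions in Plin2+/+ livers. Of 18 tested, 3 rose and 6 fell, where 20.9% of all genes rose and 21.7% fell. In Plin2-null livers 0 rose and 3 fell, where 18% of all genes rose and 18.1% fell. Parp1, the main DNA-damage poly(ADP-ribose) polymerase, fell from 14.9 ± 1.65 to 9.08 ± 1.96 TPM in Plin2+/+ livers (SD, n = 5; log2 -0.56 ± 0.11, SE). Parp14, which is induced by interferon, fell by log2 -0.85 ± 0.15 and -0.86 ± 0.15, and Parp12, also interferon-induced, by -0.66 ± 0.14 and -0.44 ± 0.14 (SE). Without the 3 libraries of low TMM factor, among them Plin2+/+ fasted replicates 2 and 3, 0 rose and 3 fell in Plin2+/+ livers. No share of all genes is given for that setting, so the changed count is not a result about these enzymes. Among markers of other cell types, 6 and 5 of 8 Kupffer cell and macrophage markers, 5 and 1 of 8 lymphocyte markers, 5 and 4 of 8 stellate cell markers, 3 and 1 of 5 cholangiocyte markers and 2 and 2 of 2 pancreatic acinar markers tested fell, and 0 markers of these 5 lists rose (Plin2+/+ and Plin2-null). Of 8 sinusoidal endothelial markers 3 rose and 2 fell in Plin2+/+ and 3 rose and 1 fell in Plin2-null livers, and of 5 neutrophil markers 2 and 3 rose and 0 fell. Hepatocyte markers moved in both directions: of 6, 3 rose and 2 fell in Plin2+/+ and 2 rose and 2 fell in Plin2-null livers. The same shares stand beside these marker counts: 21.7% and 18.1% of all genes fell, and 20.9% and 18% rose (Plin2+/+ and Plin2-null). The summed level of the Kupffer cell list was 470 to 534 TPM in Plin2+/+ fed and 234 to 318 TPM in Plin2+/+ fasted livers. In Plin2-null livers the ranges overlapped, at 359 to 926 TPM fed and 227 to 398 TPM fasted. The stellate cell sums overlapped in both genotypes. They were 150 to 282 TPM fed and 139 to 208 TPM fasted in Plin2+/+ livers, and 165 to 207 and 109 to 179 TPM in Plin2-null livers. The part of these lists in the results was not tested.

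Around Nnmt, the genes that supply and remove its methyl donor moved in both directions. Of 13 genes of the methyl donor cycle 6 rose and 4 fell in Plin2+/+ and 6 rose and 3 fell in Plin2-null livers. Mat1a, which makes S-adenosylmethionine in hepatocytes, rose by log2 1.75 ± 0.21 and 1.49 ± 0.21, and Ahcy, which removes S-adenosylhomocysteine, by 1.07 ± 0.15 and 1.37 ± 0.15 (SE). Gamt, the methyltransferase of creatine synthesis, fell from 105 ± 21.5 to 9.32 ± 2.31 TPM in Plin2+/+ and from 105 ± 41.0 to 17.7 ± 6.93 TPM in Plin2-null livers (SD, n = 5). Aox3, an aldehyde oxidase that oxidises the methylnicotinamide that NNMT makes, fell from 165 ± 42.2 to 20.2 ± 7.72 TPM and from 152 ± 20.7 to 23.5 ± 4.61 TPM (SD, n = 5; log2 -2.86 ± 0.24 and -2.39 ± 0.24, SE). Of 2 aldehyde oxidase genes tested only Aox3 was called, and the other stood at log2 0.14 and 0.15 (Plin2+/+ and Plin2-null). Nnmt thus rose in Plin2+/+ livers beside rising Mat1a and Ahcy and falling Gamt and Aox3, and the calls of these 4 genes held in all 22 alternatives in both genotypes.

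Of 20 genes whose products are substrates or partners of sirtuins, 7 rose and 4 fell in Plin2+/+ and 6 rose and 3 fell in Plin2-null livers. Acadl, a fat oxidation enzyme that SIRT3 deacetylates, rose by log2 1.47 ± 0.12 and 1.44 ± 0.12 (SE), while Sirt3 itself was not called in either genotype. Srebf1, whose product SIRT1 deacetylates, fell by log2 -4.70 ± 0.29 and -3.32 ± 0.27 (SE). In the core clock list, 2 rose and 2 fell of 15 in Plin2+/+ livers and 3 rose and 1 fell in Plin2-null livers. Ciart rose in both (2.86 ± 0.71 and 3.93 ± 0.79, SE) and Npas2 fell in both (-0.66 ± 0.23 and -0.67 ± 0.23). Of 22 alternatives, 4 ended the Npas2 call in Plin2+/+ and 6 in Plin2-null livers, among them leaving out Plin2+/+ fed replicate 3, Plin2+/+ fasted replicates 3 and 4, Plin2-null fed replicates 3 and 4 or Plin2-null fasted replicates 3 and 5 in turn (adjusted p at most 0.0901). Per1 (2.98 ± 0.62) and Dbp (1.93 ± 0.43, log2, SE) rose in Plin2-null livers. Without the 3 libraries of low TMM factor, among them Plin2+/+ fasted replicates 2 and 3, 0 clock genes were called in Plin2+/+ livers. No share of all genes is given for that setting, so this count is not a result about the clock list.

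**Figure D5:**
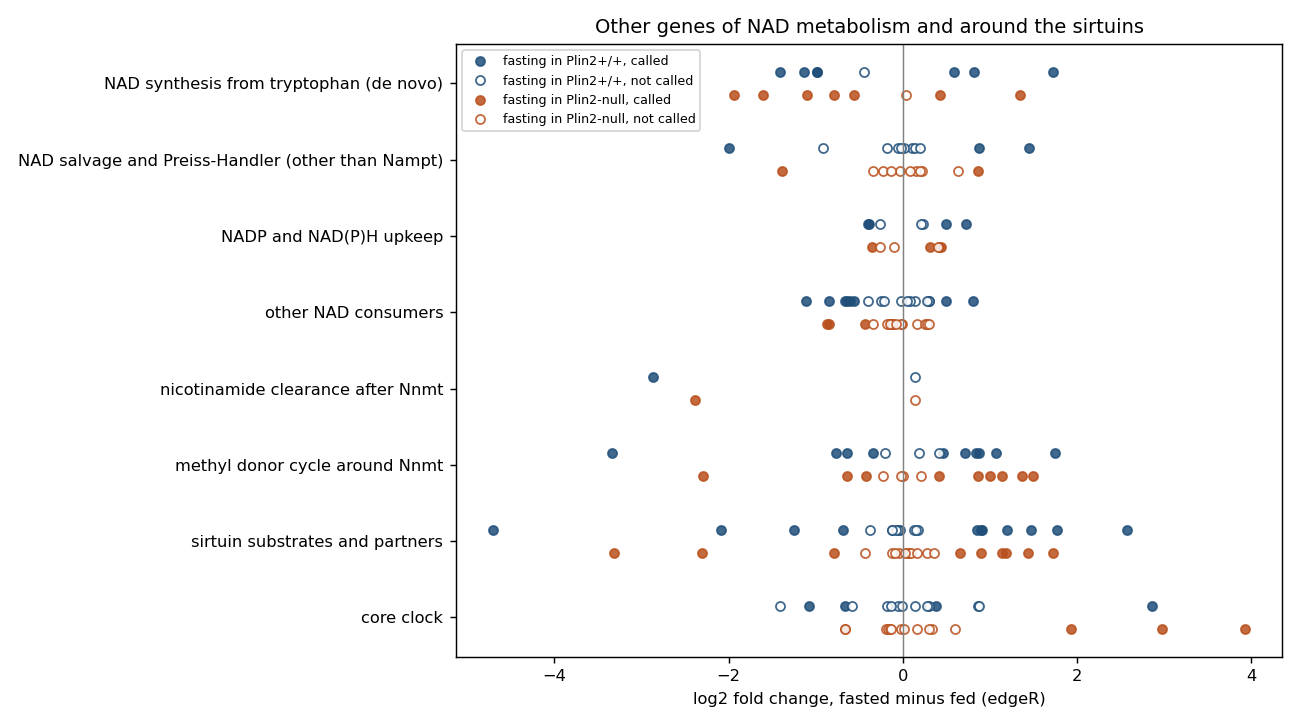
Log2 fold change of fasted over fed for every tested gene of 8 lists, in Plin2+/+ (blue) and Plin2-null livers (orange); filled dots have an edgeR adjusted p under 0.05. Rising and falling genes stand side by side in the tryptophan route and the methyl donor cycle, and 8 of 11 salvage genes in Plin2+/+ livers are open dots.

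Between genotypes, none of the genes of these lists was called in fed mice or for the interaction. In fasted mice 1 or more genes of 4 lists were called, where edgeR called 3.24% of all genes. Ppargc1a, the gene of the SIRT1 substrate PGC-1alpha, was at 18.3 ± 9.21 TPM in Plin2+/+ and 6.22 ± 2.31 TPM in Plin2-null fasted livers (SD, n = 5; log2 -1.52 ± 0.38, SE, edgeR adjusted p = 0.0415). Cps1, the urea cycle enzyme that SIRT5 acts on, was lower (-0.97 ± 0.23, adjusted p = 0.0318), as were Tdo2 (-0.68 ± 0.18, adjusted p = 0.0438) and Ahcyl2 (-0.52 ± 0.14, adjusted p = 0.0449). Srebf1 (1.28 ± 0.26, adjusted p = 0.0186), Parp10 (0.73 ± 0.18, adjusted p = 0.0383) and Gamt (0.95 ± 0.24, adjusted p = 0.0428; log2, SE) were higher. These calls lie close to the threshold: of 22 alternatives, 7 ended that of Srebf1, 11 that of Cps1, 12 that of Ahcyl2, 13 those of Ppargc1a, Tdo2 and Parp10, and 16 that of Gamt. Without the 3 libraries of low TMM factor none of the 7 was called (lowest adjusted p among them 0.330, for Srebf1). No share of all genes is given for that setting.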

How the data were processed

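Liver RNA of the 20 samples went into stranded TruSeq mRNA libraries, per the labels. The authors deposited raw counts for Ensembl mouse genes, and TPM values in another table. HISAT2 1.2.1 and featureCounts 1.4.6-p1 are named in the submitters' processing notes, which list the build GRCh38 although the identifiers are mouse. The sources used here name no annotation and no strand setting. Symbols were matched for 55141 of 55487 count rows, and 269 TPM rows had no symbol. A chi-square test of counts was run on the 40 library pairs within groups, and none agreed within sampling noise (lowest chi-square per degree of freedom 45.3).

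Differences were tested on the counts with edgeR 4.0.16 in R 4.3.3: filterByExpr, TMM, and glmQLFit (robust) with 1 coefficient per group over all 20 libraries. Tests were glmQLFTest with Benjamini-Hochberg adjustment over all genes tested and a threshold of 0.05, and a standard error is the absolute log2 fold change divided by the root of F. Log2 CPM used a prior count of 2. The fits were tested on simulated counts. For the GC trend, each gene's log2 CPM was taken as its deviation from the gene's mean over all libraries. The trend removed was a lowess curve (span 0.3) of these deviations on the GC content of the longest transcript (GENCODE M21, 99.9% of genes tested). The trends printed in log2 units per 10 percentage points, and the correlations with them, are slopes of a straight line fitted to the same deviations. Alternatives were DESeq2 1.42.0, limma 3.58.1 voom, RLE, library size alone, no filter, a filter of 1 CPM in 10 libraries, limma on log2(TPM + 1) and log2(TPM + 0.1) for genes with a mean of at least 0.1 TPM, the compared groups alone and each library left out. The GC trend, the CT010467.1 share and the libraries of low TMM factor were added after seeing the data, as was the use of all alternatives on the other lists. The 9 genes and all lists were chosen with earlier results of these data known. All 9 genes are named, Plin2, up to 4 called genes per other list and comparison with the smallest adjusted p, and the 3 genes most like each member; some genes that this rule takes are not reported here. Counting precision follows from 25506471 to 65579038 counts per library. Figures were drawn with matplotlib 3.10.9.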

Additional observations from a re-analysis of the deposited data

How the results depend on the processing

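Of the 9 genes, the number called for fasting was 4 in Plin2+/+ livers, and 2 without the 3 libraries of low TMM factor. In Plin2-null livers it was 2, and 4 with the GC trend removed. With 1 library left out in turn it ran from 3 to 5 in Plin2+/+ and from 1 to 3 in Plin2-null livers, the 1 being that without Plin2-null fasted replicate 3. For genotype in fasted mice it ran from 0 to 3, the 3 being that without Plin2+/+ fasted replicate 5. Genotype in fed mice and the interaction gave 0 of 9 in every alternative run. The shares of all genes called in the alternatives are not given here, so a changed count is not a result about the 9 genes. No called gene changed sign. No paired analysis was possible because the title of each library carries a number of its own, and no 2 groups share numbers. Sirt6, with 51 to 204 counts per library, is the gene that depth limits most. Leaving a library out leaves 4 in its group.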
